A study of Homo sapiens with 18 samples.

Results

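The 39 genes described here encode the enzymes that charge transfer RNAs, together with the scaffold proteins that hold some of these enzymes in a complex. They were taken by symbol from a closed list of tRNA synthetase and complex genes, and all 39 were found among the 57500 genes of the count files. By product, 18 of the genes act in the cytosol, 16 in mitochondria and 2 (*GARS1* and *KARS1*) in both, and 3 (*AIMP1*, *AIMP2* and *EEF1E1*) are scaffold genes. RNA came from 2 human cancer cell lines that carry dCas9-KRAB: ES8, from a Ewing sarcoma, and Rh30, from an alveolar rhabdomyosarcoma. In this CRISPRi system an sgRNA leads dCas9 fused to the KRAB repressor to a gene and silences it. In each line 2 groups of parental cells were made, 1 with a non-silencing guide (sgCTL) and 1 with a guide that silences *DNAJC17* (sgDNAJC17), and cells that stably express 3xFLAG-tagged DNAJC17 without its RRM, its RNA recognition motif (ΔRRM), received sgDNAJC17. All 6 groups had 3 replicate libraries (A, B and C) and 72 hours of puromycin. ΔRRM was driven by an EF1 promoter in a separately made stable population, and no ΔRRM cells with sgCTL were sequenced, so ΔRRM and the stable population cannot be told apart. The replicates were wells plated in triplicate and are not stated to come from separate experiments, so p-values measure only the spread between these libraries, which may be technical.

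Each aminoacyl-tRNA synthetase joins 1 amino acid to its transfer RNAs, and the charged transfer RNAs feed the ribosome. Most cytosolic enzymes and their mitochondrial counterparts come from separate nuclear genes, named with the suffix 1 and the suffix 2. Several cytosolic enzymes sit with AIMP1, AIMP2 and EEF1E1 in the multisynthetase complex, for which 10 of the 39 genes code. When amino acids run short or a stress kinase phosphorylates eIF2α, the transcription factor ATF4 raises many genes of amino acid supply, and cytosolic synthetase genes are among its known targets. DNAJC17 is a J-domain protein with an RRM that has been tied to the splicing machinery.

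Sequence near the transcription start was available for 33 of the 39 genes (RefSeq, GRCh38.p14, 250 bases before to 50 after the start) and not for *LARS1*, *VARS1*, *YARS1*, *AARS2*, *VARS2* and *TARS3*. The motif TGATGCAA, a form of the element to which ATF4 binds together with C/EBP proteins, was searched on both strands. It was found in 252 of 27305 promoters (0.923%), in 6 of 14 cytosolic members (42.9%) and in 0 of 14 mitochondrial members. The 6 stretches are printed because they set one group of cytosolic genes apart by sequence alone. Each holds 30 bases on the strand of its gene, with the motif, or its reverse complement TTGCATCA, in capitals.
AARS1: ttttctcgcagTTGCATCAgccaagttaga
CARS1: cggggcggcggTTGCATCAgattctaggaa
IARS1: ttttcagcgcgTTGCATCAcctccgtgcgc
MARS1: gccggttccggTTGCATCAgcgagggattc
NARS1: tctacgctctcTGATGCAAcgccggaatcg
TARS1: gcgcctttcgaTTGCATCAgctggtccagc
The first base of the motif lay 187 bases before the start in *AARS1* (chr16:70289675-70289704, minus strand). In *IARS1* (chr9:92293692-92293721, minus strand), *MARS1* (chr12:57488053-57488082, plus strand) and *CARS1* (chr11:3057407-3057436, minus strand) it lay 13, 4 and 2 bases before the start. In *TARS1* (chr5:33440956-33440985, plus strand) and *NARS1* (chr18:57621804-57621833, minus strand) it lay past the start. The looser form TGATGNAA, which includes every TGATGCAA, was in 1003 of the promoters (3.67%) and added 1 member, the mitochondrial tyrosyl gene *YARS2*. The palindromic motif of NRF1, a regulator of nuclear genes for mitochondria, was in 371 promoters (1.36%) and in 1 member, the mitochondrial methionyl gene *MARS2*.
YARS2: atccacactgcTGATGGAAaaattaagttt
The stretch of *YARS2* lies at chr12:32756076-32756105 on the minus strand. A match is a description of the sequence and not a measured binding site.

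Library totals ran from 35342393 to 48245989 counts, and the 39 genes took 0.480 to 0.577% of them. All 39 passed the filter on low counts in every comparison. Levels are given as CPM, the counts scaled to a common library size by the TMM method over the 18 libraries, in the order of replicates A, B and C. *DNAJC17* was at 12.1 ± 0.696 CPM (SD, n = 3) with sgCTL and 1.67 ± 0.227 CPM with sgDNAJC17 in ES8, and at 11.5 ± 0.602 and 2.49 ± 0.261 CPM in Rh30. In ΔRRM cells, where the count takes in the transgene, it was at 301 ± 15.6 CPM in ES8 and 353 ± 18.6 CPM in Rh30. Of 7 marker genes of ES8, 6 were higher in ES8 and *CD99* did not differ by the test. Of 8 marker genes of Rh30, 7 were higher in Rh30, and *TFAP2B* went against its label, at 0 in every Rh30 library. In some groups 1 library stood apart from the others by chi-square per gene: ES8 sgDNAJC17 replicate A (27.5 and 31.5, against 2.63 between B and C), ES8 ΔRRM replicate B (31.8 and 20.5, against 9.08 between A and C) and Rh30 sgDNAJC17 replicate A (16.0 and 28.7, against 7.16 between B and C). At lower values Rh30 sgCTL replicate A stood apart as well (10.2 and 11.4, against 4.12 between B and C).

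In sgCTL cells 36 of the 39 differed between ES8 and Rh30, with 17 higher in ES8 and 19 higher in Rh30. Of all 17925 genes tested 87.5% differed, 45.5% higher in ES8 and 42.0% higher in Rh30 (edgeR quasi-likelihood test, adjusted p under 0.05, the rule for every call here). A fold change of at least 2 was also met by 12 of the 39 genes, 5 higher in ES8 and 7 in Rh30, and by 50.9% of all genes (28.7% and 22.2%). With library size alone in place of TMM, 20 were higher in ES8 and 15 in Rh30, beside 87.2% of all genes, and the median of all genes moved from 0.07 to 0.28 on the log2 scale. The genes that did not differ were *HARS1*, *MARS2* and *SARS2*, with log2 differences (ES8 minus Rh30) of -0.05, 0.04 and 0.18.

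Levels between genes are compared per kb of exon (RPKM, the CPM divided by the gene's length in the files). In ES8 sgCTL cells the glycyl gene *GARS1* was highest, at 94.1 ± 0.399 RPKM (SD, n = 3), then the phenylalanyl subunit gene *FARSA* at 79.1 ± 1.71 and the alanyl gene *AARS1* at 72.8 ± 0.716 RPKM. In Rh30 sgCTL cells the methionyl gene *MARS1* was highest, at 198.5 ± 1.66 RPKM against 48.4 ± 0.540 RPKM in ES8, a log2 difference of -2.02 (SE 0.05, adjusted p = 7.21e-35). Rh30 was also higher in the scaffold gene *AIMP2* (125 ± 5.96 against 60.1 ± 0.931 RPKM), the threonyl gene *TARS1* (62.2 ± 1.87 against 21.6 ± 0.782), the tryptophanyl gene *WARS1* (25.4 ± 0.365 against 8.93 ± 0.202) and the mitochondrial asparaginyl gene *NARS2* (20.3 ± 0.602 against 7.88 ± 0.155). ES8 was higher in *AARS1* (23.7 ± 1.14 RPKM in Rh30), in *GARS1* (38.3 ± 0.454 RPKM in Rh30) and in the mitochondrial glutamyl gene *EARS2*, at 17.6 ± 0.321 RPKM against 5.76 ± 0.0884. Neighbours in the order often lay within each other's spread, as *IARS1* (54.5 ± 1.23) and *NARS1* (54.2 ± 1.49) did in ES8 and *TARS1* and *IARS1* (61.4 ± 2.88 RPKM) did in Rh30. The lowest members in ES8 were *CARS2* (2.56 ± 0.122 RPKM), the threonyl paralog *TARS3* (2.70 ± 0.121) and *SARS2* (3.22 ± 0.0973). In Rh30 they were *TARS3* (1.79 ± 0.0363), *VARS2* (2.63 ± 0.182) and *SARS2* (2.87 ± 0.354). In *SARS2*, 57.0% of the exonic bases also lie in exons of other genes, so its reads cannot be assigned to it alone. The same limit holds for smaller parts of *VARS2* (22.0%) and *MARS1* (12.4%).

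**Figure D1:**
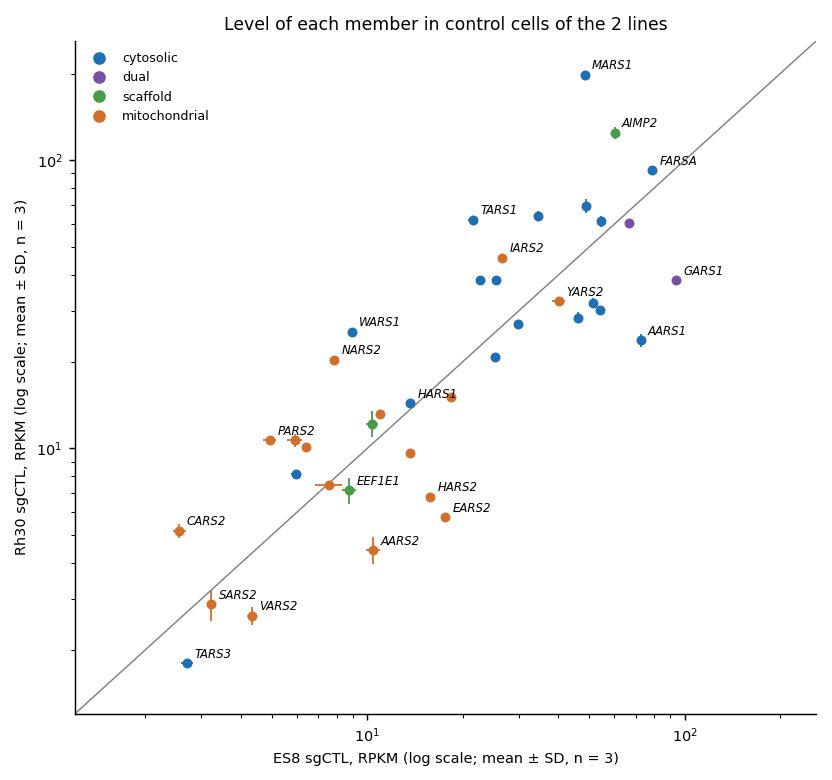
Mean RPKM of each of the 39 genes in sgCTL cells of ES8 (horizontal) and Rh30 (vertical), both on log axes, with n = 3 libraries per point and colours for cytosolic, dual, scaffold and mitochondrial genes. *MARS1* stands far above the diagonal at 198.5 RPKM in Rh30 and 48.4 RPKM in ES8, and most mitochondrial genes lie in the lower left.

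In ES8, knockdown of *DNAJC17* lowered 9 of the 39 genes and raised 7. Of all 17143 genes tested, 27.4% were called (13.6% raised and 13.8% lowered). The genes that fell were *EPRS1*, *FARSA*, *FARSB*, *IARS1*, *LARS1*, *VARS1*, *TARS3*, *IARS2* and *TARS2*. The genes that rose were *KARS1*, *SARS1*, *WARS1*, *YARS1*, *HARS2*, *PARS2* and *WARS2*. No member changed by as much as 2-fold, beside 1.95% of all genes, and the median log2 fold change was 0.01 over the members and -0.02 over all genes. Scaled by library size alone, 4 rose and 13 fell, beside 28.6% of all genes called.

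The valyl gene *VARS1* (chr6:31777518-31795953, minus strand) was at 309.8, 319.6 and 309 CPM with sgCTL and 246, 208 and 206 CPM with sgDNAJC17 in ES8. All 3 knockdown libraries lay below the controls, and the log2 fold change of -0.50 (SE 0.07, adjusted p = 0.00111) was the largest fall among the members. The isoleucyl gene *IARS1*, an enzyme of the complex, was at 409.9, 393 and 408 CPM with sgCTL and 302, 310.0 and 304 CPM with sgDNAJC17, a fall of 0.39 on the log2 scale (SE 0.05, adjusted p = 0.000658). Its mitochondrial counterpart *IARS2* was at 111, 109.7 and 111 CPM and then at 80.3, 87.0 and 94.3 CPM, a log2 fold change of -0.33 (SE 0.07, adjusted p = 0.00626). The isoleucyl pair was therefore lower in all 3 knockdown libraries in both compartments.

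*EPRS1*, whose single product joins the glutamyl and prolyl enzymes in the complex, was at 139.9, 137 and 141 CPM with sgCTL and 91.9, 112 and 116 CPM with sgDNAJC17 (log2 fold change -0.37, SE 0.08, adjusted p = 0.00993). The leucyl gene *LARS1*, also of the complex, was at 379.9, 364 and 378 CPM and then at 284, 324 and 327 CPM (-0.25, SE 0.06, adjusted p = 0.0174). In both genes replicate A was the lowest of the knockdown libraries, and all 3 were under the controls.

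*FARSA* and *FARSB* code for the subunits of the cytosolic phenylalanyl enzyme. *FARSA* was at 196, 194 and 188 CPM with sgCTL and 175, 137 and 136 CPM with sgDNAJC17 (log2 fold change -0.36, SE 0.09, adjusted p = 0.0146). *FARSB* was at 119, 113 and 116 CPM and then at 88.7, 105 and 99.1 CPM (-0.24, SE 0.07, adjusted p = 0.0317). Both subunit genes fell, with replicate A highest of the knockdown libraries for *FARSA* and lowest for *FARSB*. *TARS3* was at 11.9, 13.0 and 12.3 CPM and then at 8.76, 10.5 and 10.1 CPM (-0.32, SE 0.10, adjusted p = 0.0352). The mitochondrial threonyl gene *TARS2* was at 73.0, 75.8 and 75.2 CPM and then at 64.7, 59.5 and 60.7 CPM (-0.27, SE 0.06, adjusted p = 0.00906), whereas the cytosolic *TARS1* was not called at 0.02.

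The genes that rose in ES8 were led by the mitochondrial prolyl and tryptophanyl genes. *PARS2* was at 12.2, 11.1 and 11.4 CPM with sgCTL and 14.9, 13.5 and 14.9 CPM with sgDNAJC17 (log2 fold change 0.33, SE 0.09, adjusted p = 0.0178). *WARS2* was at 22.6, 21.6 and 24.1 CPM and then at 27.8, 27.5 and 29.1 CPM (0.32, SE 0.08, adjusted p = 0.0125). The cytosolic *WARS1* moved the same way, from 58.1, 56.7 and 55.6 CPM to 69.6, 64.7 and 66 CPM (0.24, SE 0.06, adjusted p = 0.0134), so that both tryptophanyl genes rose without overlap between the groups. The tyrosyl gene *YARS1* went from 206, 206 and 210.4 CPM to 232, 227 and 232 CPM (0.16, SE 0.05, adjusted p = 0.0373). The lysyl gene *KARS1*, whose transcripts give the enzyme of both compartments, went from 275, 262 and 276 CPM to 298, 307 and 299 CPM (0.16, SE 0.05, adjusted p = 0.0380). *SARS1* and *HARS2* rose by 0.16 and 0.23. *HARS2* shares 592 exonic bases with *HARS1* on the other strand. Without sgDNAJC17 replicate A, which stood apart, 10 members were called up and 16 down in ES8, beside 45.3% of all genes. Leaving out sgCTL replicate A or B left 0 called up, and 14.8% or 15.5% of all genes called.

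In Rh30, knockdown raised 13 of the 39 genes and lowered 4. Of all 15391 genes tested, 32.3% were called, 16.1% up and 16.2% down. The 13 were *FARSB*, *GARS1*, *KARS1*, *RARS1*, *TARS1*, *WARS1*, *YARS1*, the scaffold genes *AIMP1*, *AIMP2* and *EEF1E1*, and the mitochondrial genes *MARS2*, *WARS2* and *YARS2*. The 4 were *FARSA*, *QARS1*, *VARS1* and *TARS3*. None changed by 2-fold, beside 1.55% of all genes. The median log2 fold change was 0.06 over the members and 0.00 over all genes. Library size alone gave 8 up and 7 down, beside 32.0% of all genes. With the replicate letter as a block, 16 members were up and 8 down, beside 47.0% of all genes called. *CARS2* and *RARS2* joined those that rose (adjusted p = 0.0209 and 0.0315 with the block). Libraries of the same letter deviated alike in this comparison, but the letters are not stated to mark pairs. Without sgDNAJC17 replicate A, which stood apart, 14 were up and 8 down, beside 41.4% of all genes. Without sgCTL replicate A, which stood apart as well, 7 were up, where 3182 of all 15863 genes tested were called.

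The largest rises were those of the scaffold genes *AIMP2* and *AIMP1*, and the third scaffold gene, *EEF1E1*, rose as well. *AIMP2* (chr7:6009245-6023834, plus strand) was at 218, 231 and 239.5 CPM with sgCTL and 313, 348 and 340.3 CPM with sgDNAJC17 in Rh30, a log2 fold change of 0.56 (SE 0.07, adjusted p = 6.74e-05). *AIMP1* (chr4:106315544-106349226, plus strand) was at 35.6, 43.1 and 43.0 CPM and then at 51.6, 57.5 and 64.0 CPM (0.52, SE 0.09, adjusted p = 0.000981). *EEF1E1* (chr6:8073360-8102578, minus strand) was at 13.4, 16.6 and 15.2 CPM and then at 16.8, 19.0 and 20.9 CPM (0.34, SE 0.10, adjusted p = 0.0196). The groups did not overlap in any of the 3 genes, but how often this holds over all genes was not counted. The call of *EEF1E1* was lost under a GC and length correction (0.07, adjusted p = 0.50). It was also lost without any of 4 single libraries, sgCTL A or C or sgDNAJC17 B or C.

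In ES8 the same genes were not called. There *AIMP2* was at 111, 112 and 109 CPM with sgCTL and 110.4, 113 and 109 CPM with sgDNAJC17 (log2 fold change 0.01, SE 0.05, adjusted p = 0.892). *AIMP1* was at 34.3, 32.9 and 35.9 CPM and then at 24.3, 36.3 and 37.4 CPM (-0.06, SE 0.14, adjusted p = 0.782). *EEF1E1* was at 18.6, 19.4 and 17.4 CPM and then at 16.9, 20.3 and 19.2 CPM (0.04, SE 0.09, adjusted p = 0.806). The ES8 groups overlapped in each gene, and in *AIMP1* replicate A alone was low.

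A count of *AIMP2* can hold reads of another gene, since 532 of its exonic bases (28.9%) lie under exons of *EIF2AK1* on the other strand, and the strand setting of the counting is not given in the sources used here. *EIF2AK1*, which codes for an eIF2α kinase, was at 316 ± 3.10 CPM (SD, n = 3) with sgCTL and 390.2 ± 12.6 CPM with sgDNAJC17 in Rh30 (log2 fold change 0.32, adjusted p = 0.00117) and was not called in ES8 (-0.06). Reads of the pair cannot be told apart in the shared stretch. *AIMP1* shares 11.6% of its exonic bases with *TBCK*, which was not called in the Rh30 knockdown (-0.20, adjusted p = 0.115). *EEF1E1* shares 18.7% with a read-through gene on the same strand that held at most 2 counts in any library.

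The glutaminyl gene *QARS1*, an enzyme of the complex, fell in Rh30. It was at 185, 180.3 and 179 CPM with sgCTL and 143, 129 and 120.2 CPM with sgDNAJC17 (log2 fold change -0.46, SE 0.07, adjusted p = 0.000265), and all 3 knockdown libraries lay well under the controls. In ES8 it was at 107, 107 and 106 CPM and then at 105, 88.3 and 87.8 CPM (-0.18, SE 0.07, adjusted p = 0.0871), with replicate A next to the controls. *VARS1* went from 204, 192 and 188 CPM to 161, 146 and 127 CPM in Rh30 (-0.41, SE 0.08, adjusted p = 0.00133). *FARSA* went from 221, 226 and 229 CPM to 204, 203 and 189.7 CPM (-0.16, SE 0.06, adjusted p = 0.0436). *TARS3* went from 8.39, 8.06 and 8.18 CPM to 6.22, 5.85 and 6.76 CPM (-0.37, SE 0.10, adjusted p = 0.0115). These 3 genes fell in both lines, which is 3 of the 9 that fell in ES8 and of the 4 that fell in Rh30, and of all genes tested in both lines 6.18% fell in both. In Rh30 the call of *FARSA* was lost with the GC and length correction and without some single libraries, and that of *TARS3* without sgDNAJC17 replicate B. The ES8 calls of *FARSA* and *TARS3* were also lost without some library.

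Rises in both lines were seen for 4 genes, of the 7 in ES8 and the 13 in Rh30, and of all 13841 genes tested in both lines 6.17% rose in both. These were *KARS1*, *WARS1*, *YARS1* and *WARS2*. The Rh30 calls of *KARS1* and *WARS1* and the ES8 calls of all 4 were lost without some single libraries. In Rh30 *WARS1* went from 159, 164 and 162 CPM to 183, 181 and 172 CPM (log2 fold change 0.16, SE 0.06, adjusted p = 0.0442). *WARS2* went from 38.7, 42.1 and 42.5 CPM to 48.8, 50.5 and 52.9 CPM (0.32, SE 0.07, adjusted p = 0.00303). The tryptophanyl pair was thus higher with sgDNAJC17 in both lines and both compartments. In *WARS1* 10.6% of the exonic bases also lie in exons of other genes. *YARS1* went from 169.9, 171 and 169 CPM to 199.6, 197 and 192 CPM (0.22, SE 0.06, adjusted p = 0.00805), and the mitochondrial *YARS2* from 67.9, 71.5 and 70.1 CPM to 87.6, 93.8 and 89.8 CPM (0.39, SE 0.06, adjusted p = 0.000471). *KARS1* went from 240.2, 252 and 246 CPM to 276, 286 and 272 CPM (0.19, SE 0.06, adjusted p = 0.0197). *MARS2*, *RARS1*, *TARS1* and *GARS1* rose in Rh30 by 0.30, 0.21, 0.20 and 0.16. Knockdown called 14 members in neither line: *AARS1*, *CARS1*, *HARS1*, *MARS1*, *NARS1*, *AARS2*, *CARS2*, *EARS2*, *FARS2*, *LARS2*, *NARS2*, *RARS2*, *SARS2* and *VARS2*. Of these, *CARS2* and *RARS2* were called up in Rh30 with the replicate block. That fit called 24 of the 39 members, against 17 without it, beside 47.0% of all genes. Its further calls of members that fell include genes of this list, which are not named here.

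**Figure D2:**
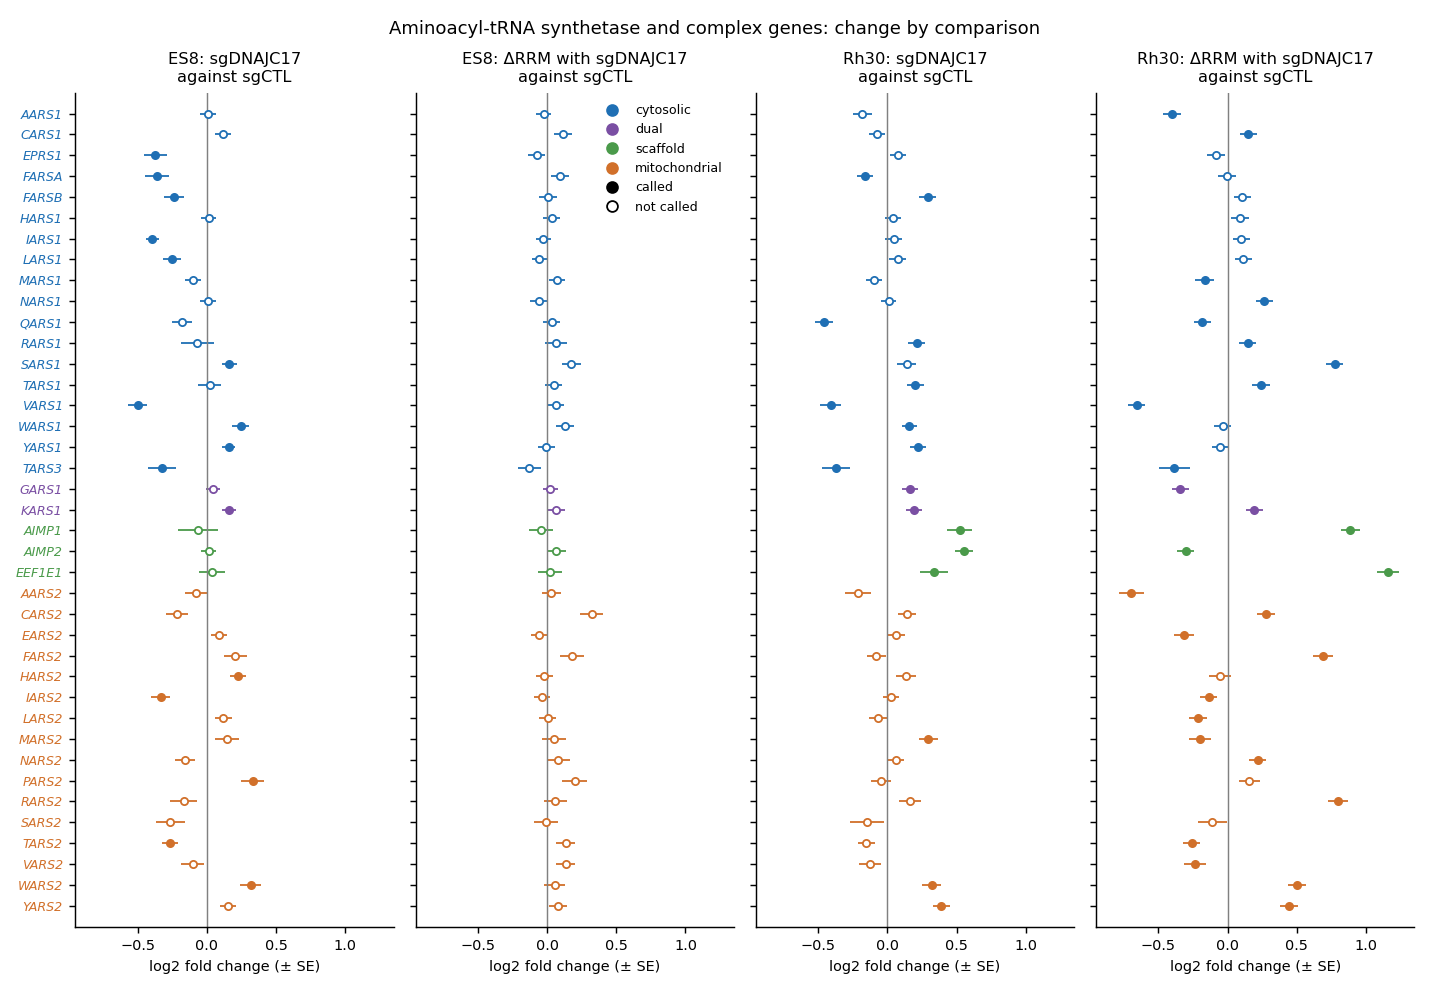
Log2 fold change ± SE (horizontal) of each of the 39 genes (rows) for sgDNAJC17 against sgCTL and for ΔRRM cells with sgDNAJC17 against sgCTL in each line, with n = 3 libraries per group, filled points for adjusted p under 0.05 and colours for the compartment. In the ES8 panels 16 genes are filled for knockdown and 0 for ΔRRM, and in the Rh30 panels 17 and 28 are filled.

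Other signals in Rh30 differed between the groups as well. The summed level of 9 epithelial marker genes was 1.11 to 1.40 CPM with sgCTL, 12.4 to 18.2 CPM with sgDNAJC17 and 13.7 to 15.5 CPM in ΔRRM cells. All 4 of these markers that passed the filter on low counts rose (*KRT8*, *KRT18*, *KRT19* and *CDH1*), with *KRT8* at 9.54 ± 1.82 CPM (SD, n = 3) after knockdown, and *CLDN7* and *RAB25* were at 0 in every sgCTL library. In ES8 the same 9 markers summed to 32.9 to 44 CPM over the 3 groups. The summed level of the 8 Rh30 marker genes was 3062 to 3164 CPM with sgCTL, 2578 to 2790 CPM with sgDNAJC17 and 2019 to 2219 CPM in ΔRRM cells. The part of these signals in the synthetase results was not tested. In bulk RNA, fewer cells of a type and less RNA per cell cannot be told apart.

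The response to knockdown differed between the lines in 8 of the 39 genes, by the interaction of line and sgRNA over the 12 parental libraries. Of 18899 genes tested, 9.78% were called, 5.23% with the higher log2 change in Rh30, as in all 8 members, and 4.55% with the lower. No interaction reached 1 on the log2 scale, a 2-fold difference, which 1.26% of all genes did. With library size alone, 6 were higher and 1 lower, beside 9.07% of all genes. The complex held 5 of the 8 (*EPRS1*, *IARS1*, *LARS1*, *AIMP1* and *AIMP2*), and the rest were *FARSB*, *IARS2* and *CARS2*. The median interaction over all genes was 0.19, 0.00 and -0.13 from the bin of lowest to that of highest GC content, and 6 of the 8 lie in the lowest bin. With the GC and length correction 7 of the 8 calls held, all but that of *LARS1* (0.18), and 4 held in every alternative fit (*EPRS1*, *FARSB*, *IARS1* and *AIMP2*). For 5 of the 8 (*EPRS1*, *IARS1*, *LARS1*, *IARS2* and *FARSB*) the gene fell in ES8. Of these, *FARSB* alone was called in both lines in opposite directions: it went from 208, 219 and 222 CPM to 251, 268 and 266 CPM in Rh30 (log2 fold change 0.29, SE 0.06, adjusted p = 0.00260), and the interaction was 0.56 (SE 0.10, adjusted p = 0.00136).

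The other 4 genes that fell in ES8 stayed close to their controls in Rh30. *EPRS1* was at 205, 206 and 216 CPM with sgCTL and 217, 213 and 225 CPM with sgDNAJC17 there (log2 fold change 0.08, SE 0.06), with an interaction of 0.48 (SE 0.10, adjusted p = 0.00603). *IARS1* was at 434, 453 and 476 CPM and then at 447, 466 and 479 CPM (0.05, SE 0.06), with an interaction of 0.46 (SE 0.09, adjusted p = 0.00280). The Rh30 groups overlapped in both genes. *LARS1* was at 225, 225 and 242 CPM and then at 235, 233 and 253 CPM (0.07), with an interaction of 0.35 (adjusted p = 0.0220), and *IARS2* at 190.4, 189.7 and 194 CPM and then at 190.5, 192 and 197 CPM (0.03), with an interaction of 0.39 (adjusted p = 0.0112). For the scaffold genes the interaction was 0.61 in *AIMP1* (SE 0.17, adjusted p = 0.0234) and 0.57 in *AIMP2* (SE 0.09, adjusted p = 0.00106), and it was 0.33 in *EEF1E1* (SE 0.14, adjusted p = 0.158). The mitochondrial cysteinyl gene *CARS2* was called in neither line, at 25.8, 28.2 and 26.3 CPM against 24.8, 21.9 and 21.9 CPM in ES8 and at 52.8, 51.7 and 57.8 CPM against 60.5, 60.5 and 56.2 CPM in Rh30, yet its interaction of 0.38 passed (SE 0.11, adjusted p = 0.0330). The interaction was 0.11 for *VARS1* (SE 0.12, adjusted p = 0.606), which fell in both lines. It was -0.35 for *PARS2* (SE 0.12, adjusted p = 0.0675), at 24.4, 25.7 and 25.0 CPM and then at 23.1, 23.3 and 25.6 CPM in Rh30.

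**Figure D3:**
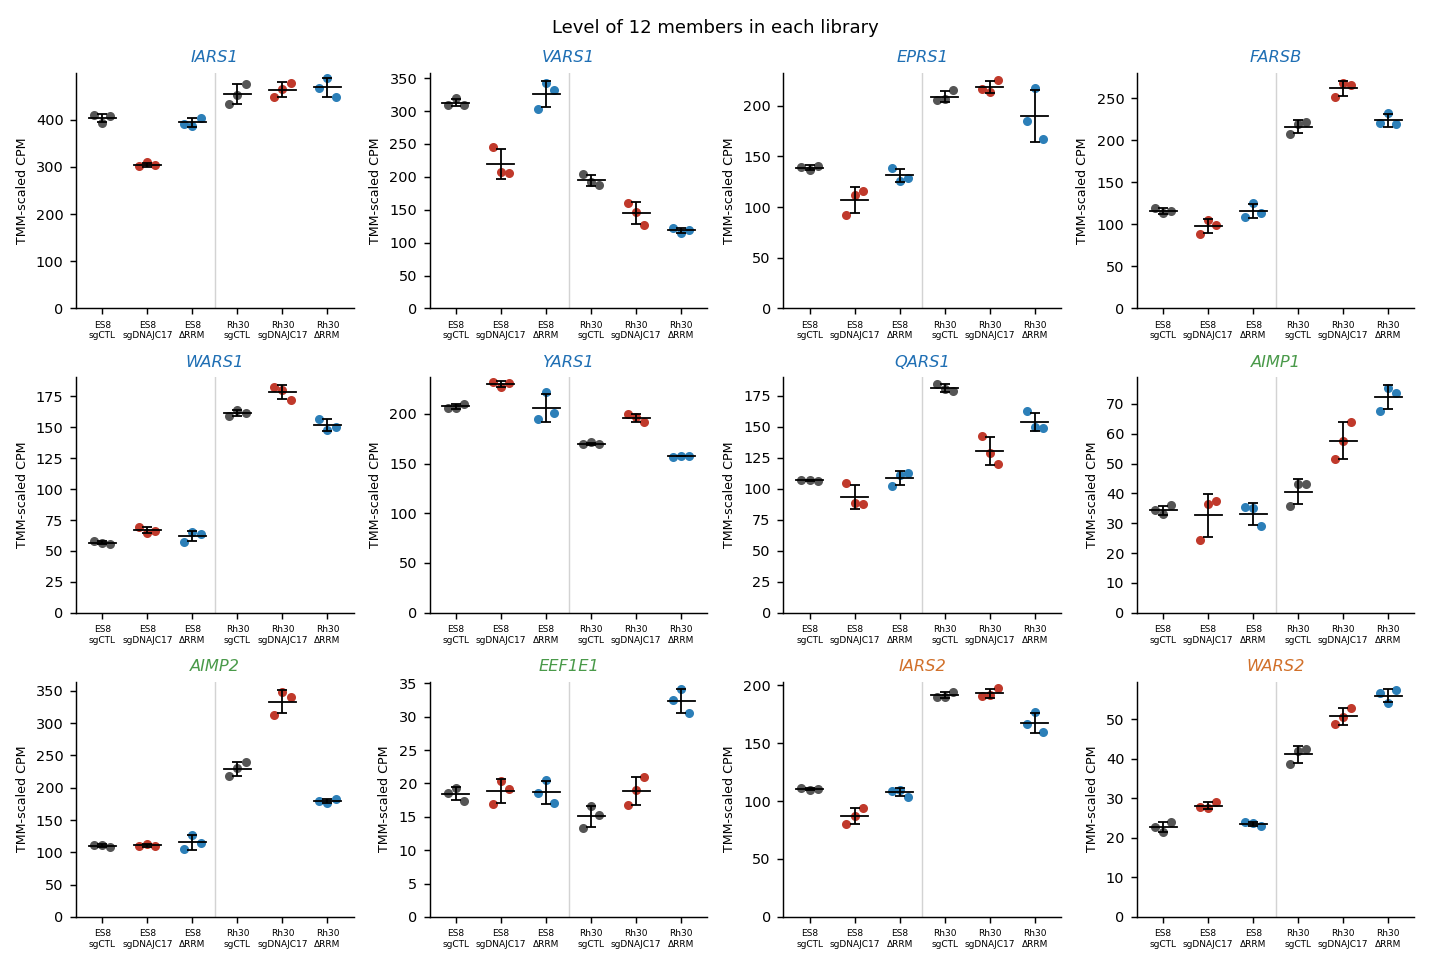
TMM-scaled CPM (vertical) of 12 of the genes in each of the 18 libraries, by line and condition (horizontal), with 1 point per library and a line at the mean ± SD of n = 3. *IARS1* and *EPRS1* drop with sgDNAJC17 in ES8 alone, *AIMP2* is high with sgDNAJC17 in Rh30 alone, and *WARS2* is higher with sgDNAJC17 than with sgCTL in both lines.

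In ES8 cells with ΔRRM, 0 of the 39 genes differed from sgCTL cells, beside 0.174% of all 17199 genes tested (0.0930% up and 0.0814% down, and 0.0349% with a 2-fold change). At an unadjusted p under 0.05, 3 members were higher and 0 lower, and DESeq2 called 0. The log2 fold changes ran from -0.13 in *TARS3* to 0.32 in *CARS2* (SE 0.08, adjusted p = 0.180). Against sgDNAJC17 cells without ΔRRM, 6 of the 39 were higher and 0 lower, beside 7.35% and 7.36% of all genes. None passed 2-fold, which 1.97% of all genes did. They were *VARS1*, *CARS2*, *FARSA*, *TARS2*, *IARS1* and *IARS2*. With the GC and length correction 11 were higher and 2 lower, beside 31.8% of all genes. Without ΔRRM replicate B, which stood apart, 0 differed from sgCTL (0.856% of all genes) and 4 were higher and 0 lower against knockdown (10.8% of all genes). The comparisons share libraries, so their values are given side by side and are not independent of each other.

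*VARS1* was at 304, 343 and 332 CPM in ES8 ΔRRM cells, a log2 difference of 0.57 from knockdown (SE 0.09, adjusted p = 0.00283), all above the highest knockdown library at 246 CPM. *IARS1* was at 391, 388 and 404 CPM (0.37 from knockdown, SE 0.08, adjusted p = 0.00866), *IARS2* at 109, 109.9 and 104 CPM (0.30, SE 0.09, adjusted p = 0.0425) and *FARSA* at 187, 221 and 207 CPM (0.46, SE 0.11, adjusted p = 0.0152). *CARS2* was at 30.2, 36.5 and 33.2 CPM (0.54, SE 0.11, adjusted p = 0.00723). In these 5 genes every ΔRRM library lay above every knockdown library, in a comparison where 14.7% of all genes were called. *EPRS1* (139, 126 and 129 CPM), *LARS1* (367, 352 and 355 CPM) and *FARSB* (109, 125 and 114 CPM) lay above the knockdown libraries without passing the test, at 0.30, 0.20 and 0.25. Of the genes that rose with knockdown, *WARS1* was at 57.1, 65.0 and 63.8 CPM, *YARS1* at 195, 222 and 201 CPM, *WARS2* at 23.9, 23.9 and 22.9 CPM and *PARS2* at 12.1, 12.9 and 14.7 CPM, none called against knockdown or sgCTL. *KARS1* was at 264, 309 and 274 CPM, *QARS1* at 102, 111 and 113 CPM and *TARS3* at 10.9, 11 and 11.9 CPM. The scaffold genes were at 35.5, 35.1 and 29.0 CPM (*AIMP1*), 104, 127 and 115 CPM (*AIMP2*) and 18.5, 20.5 and 17.0 CPM (*EEF1E1*).

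Rh30 ΔRRM cells differed from sgCTL cells in 28 of the 39 genes, 14 higher and 14 lower, at about the share of all 15442 genes tested (68.8%, 33.8% up and 35.0% down). Against sgDNAJC17 cells, 8 were higher and 12 lower, beside 60.0% of all genes (29.4% and 30.5%), and 0 passed 2-fold, beside 7.79%. Scaled by library size alone, the members split into 7 higher and 22 lower against sgCTL and 5 higher and 19 lower against knockdown, beside 70.0% and 61.7% of all genes, with the median of all genes at -0.25 and -0.17. Of the members, *EEF1E1* alone passed a 2-fold change against sgCTL, which 9.97% of all genes did, 6.66% upwards. It was at 32.4, 34.2 and 30.6 CPM, a log2 fold change of 1.16 (SE 0.08, adjusted p = 7.56e-20), all above the highest sgDNAJC17 library at 20.9 CPM.

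The scaffold genes went apart in these cells. *AIMP1* was at 67.7, 75.3 and 73.8 CPM, 0.89 above sgCTL (SE 0.07, adjusted p = 1.74e-17) and 0.35 above knockdown (SE 0.08, adjusted p = 0.000145). *AIMP2* was at 179, 176 and 182 CPM, below every sgCTL and sgDNAJC17 library, at -0.30 from sgCTL (SE 0.06, adjusted p = 1.95e-05) and -0.87 from knockdown (SE 0.08, adjusted p = 9.67e-17). The gene that overlaps it, *EIF2AK1*, was at 199.4 ± 6.85 CPM (SD, n = 3), also below sgCTL (-0.61, adjusted p = 2.14e-13). *VARS1* was at 122, 115 and 119 CPM, at -0.66 from sgCTL (SE 0.06, adjusted p = 1.84e-14) and -0.26 from knockdown (SE 0.08, adjusted p = 0.00348), so it was lowest in the ΔRRM cells in Rh30. With the GC and length correction the difference from knockdown was 0.010.

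*SARS1* was at 249, 273 and 276 CPM with sgCTL, 272, 294 and 302 CPM with sgDNAJC17 and 429.5, 435 and 447 CPM in ΔRRM cells (log2 fold change 0.77 from sgCTL, SE 0.06, adjusted p = 1.28e-16). The seryl gene therefore rose in ΔRRM cells without a call in the Rh30 knockdown. Mitochondrial genes lay at both ends. *RARS2* was at 24.2, 24.5 and 24.6 CPM with sgCTL, 24.3, 27.1 and 29.8 CPM with sgDNAJC17 and 38.5, 43.1 and 41.0 CPM in ΔRRM cells (0.80, SE 0.07, adjusted p = 2.37e-15). *FARS2* was at 23.3, 24.5 and 23.5 CPM, then 22.5, 21.9 and 22.2 CPM, then 38.6, 34.3 and 37.7 CPM (0.69, SE 0.07, adjusted p = 1.06e-12). *AARS2* was at 21.4, 18.1 and 17.7 CPM, then 17.8, 16.2 and 14.7 CPM, then 10.1, 11.4 and 12.6 CPM (-0.69, SE 0.09, adjusted p = 8.63e-10). The arginyl and phenylalanyl genes of mitochondria thus rose and the alanyl gene fell, each without overlap, where 68.8% of all genes were called. In ES8, *RARS2* was at 35.4, 33.8 and 35.1 CPM, then 26.1, 32.7 and 33.3 CPM, then 35.8, 40.2 and 32.1 CPM, and *FARS2* at 15.3, 14.9 and 15.1 CPM, then 18.5, 17.3 and 16.0 CPM, then 15.2, 18.6 and 17.3 CPM.

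The remaining named genes of Rh30 ΔRRM cells lay between -0.38 and 0.50 on the log2 scale against sgCTL. *WARS2* (56.6, 54.1 and 57.4 CPM) was 0.50 above sgCTL and *CARS2* (62.9, 60.1 and 66.6 CPM) 0.28 above. *QARS1* (163, 150.0 and 149 CPM) lay between the groups, at -0.18 from sgCTL and 0.27 from knockdown, both called. *TARS3* (5.87, 6.64 and 5.61 CPM) was at -0.38 and *IARS2* (167, 177 and 159.8 CPM) at -0.14 from sgCTL, both called. *KARS1* (282, 264 and 265 CPM) was at 0.19, called. *EPRS1* (185, 218 and 167 CPM), *FARSA* (235, 205 and 207 CPM), *FARSB* (220.1, 233 and 219 CPM), *IARS1* (468, 489 and 449 CPM) and *LARS1* (242, 261 and 219 CPM) were not called against sgCTL. Neither were *WARS1* (157, 148 and 150.5 CPM), *YARS1* (157, 158 and 158 CPM) and *PARS2* (27.8, 25.7 and 27.2 CPM). Of the rest, *YARS2*, *NARS1*, *TARS1*, *NARS2*, *CARS1* and *RARS1* rose against sgCTL, by 0.44, 0.26, 0.24, 0.22, 0.15 and 0.14. *AARS1*, *GARS1*, *EARS2*, *TARS2*, *VARS2*, *LARS2*, *MARS2* and *MARS1* fell, by 0.40, 0.34, 0.31, 0.26, 0.24, 0.21, 0.20 and 0.16, and *HARS1*, *HARS2* and *SARS2* were not called.

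In this comparison the median change over all genes went down from low to high GC content, though single members did not all follow it. Over all genes the median log2 fold change was 0.29 among the genes of lowest GC content, 0.00 among those in the middle and -0.34 among those of highest GC content, in 3 bins of equal size. The members ran from 36.4% GC in *EEF1E1* to 61.7% in *VARS1*. After correction of the counts for GC content and length, 20 of the 28 calls held with the same sign, and 10 of the 39 members changed sign, 5 of them called without the correction (*QARS1* to 0.02, *VARS2* to 0.37, *MARS1* to 0.17, *RARS1* to -0.20 and *NARS2* to -0.13). The corrected log2 fold change was 0.45 for *EEF1E1*, 0.42 for *AIMP1*, 0.23 for *RARS2* and -0.16 for *VARS1*, each far smaller than without it, and 0.82 for *SARS1*, 0.50 for *FARS2*, -0.45 for *AARS2* and -0.61 for *AIMP2*. In the ES8 knockdown the medians over the same bins were -0.07, 0.01 and 0.01, and 15 of the 16 calls held, all but that of *LARS1*. In the Rh30 knockdown the medians were 0.11, 0.00 and -0.14, and 13 of the 17 calls held. Those of *EEF1E1*, *RARS1*, *GARS1* and *FARSA* did not.

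**Figure D4:**
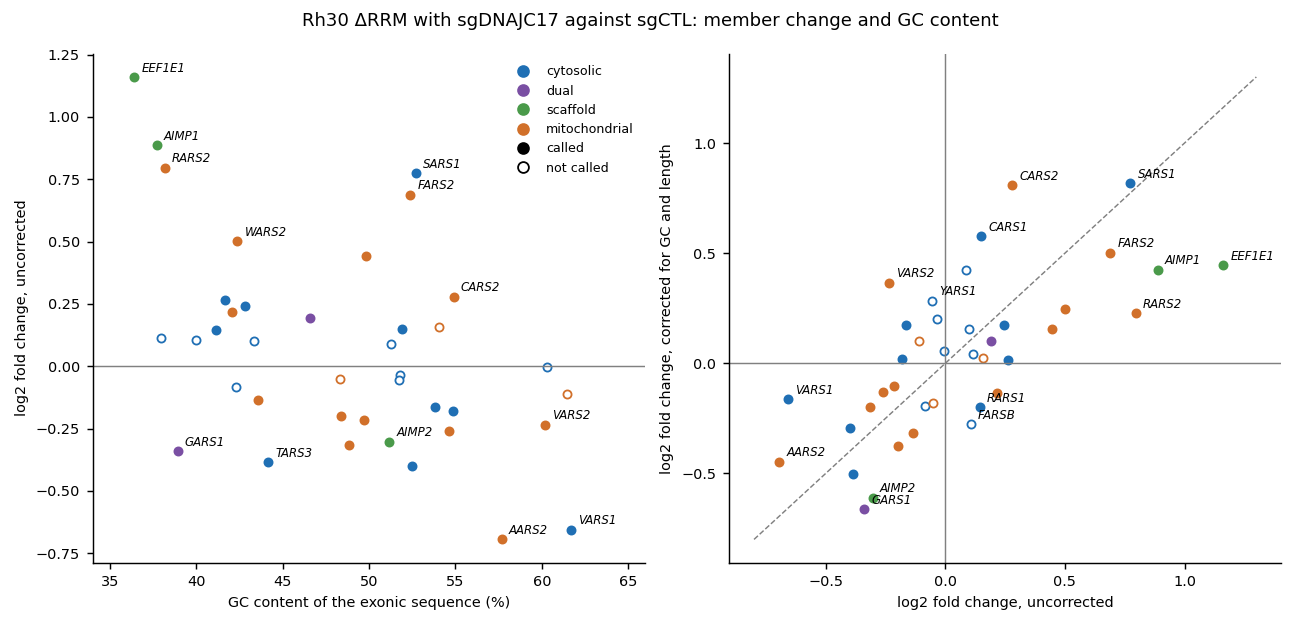
Rh30 ΔRRM cells with sgDNAJC17 against sgCTL cells: log2 fold change of each of the 39 genes against its GC content in percent (left), and log2 fold change after against before the GC and length correction (right), with colours for the compartment. *EEF1E1* lies at 36.4% GC and goes from 1.16 to 0.45 with the correction, *VARS1* lies at 61.7% and goes from -0.66 to -0.16, and *SARS1* stays at 0.77 and 0.82.

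The change in ΔRRM cells against sgCTL differed between the lines in 19 of the 39 genes, 8 higher and 11 lower in Rh30, beside 41.4% of 18854 genes tested (19.9% and 21.5%). A 2-fold difference was met by *EEF1E1* among the members and by 6.66% of all genes, 3.85% higher in Rh30. With library size alone, 5 were higher and 18 lower, beside 43.5% of all genes, and the median of all genes was at -0.23. The interaction was 1.14 in *EEF1E1* (SE 0.12, adjusted p = 2.18e-07), 0.93 in *AIMP1* (SE 0.12, adjusted p = 1.36e-06) and -0.72 in *VARS1* (SE 0.08, adjusted p = 4.21e-07), and these were among the largest. With the GC and length correction 13 of the 19 held.

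Cytosolic and mitochondrial genes were then set side by side. In the ES8 knockdown 7 of the 18 cytosolic genes fell and 3 rose, with a median log2 fold change of -0.08, and 2 of the 16 mitochondrial genes fell and 3 rose, with a median of 0.01. In the Rh30 knockdown 5 cytosolic genes rose and 4 fell, with a median of 0.04, and 3 mitochondrial genes rose and 0 fell, with a median of 0.05. In Rh30 ΔRRM cells against sgCTL, 5 cytosolic genes rose and 5 fell, and 6 mitochondrial genes rose and 7 fell. Of all genes 13.6% rose and 13.8% fell in the ES8 knockdown, and 16.1% and 16.2% in the Rh30 knockdown. In Rh30 ΔRRM cells against sgCTL 33.8% rose and 35.0% fell, and the class counts there lie near these shares. The counts and medians of the classes are descriptions, with no test of the difference between them.

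Summed over the class, the cytosolic genes stood at 646 ± 4.45 RPKM (SD, n = 3) in ES8 sgCTL cells, 582 ± 7.11 with sgDNAJC17 and 656 ± 25.1 in ΔRRM cells. The mitochondrial sum was 196 ± 2.97, 196 ± 3.36 and 202 ± 6.63 RPKM. The ratio of the cytosolic to the mitochondrial sum in ES8 was 3.26, 3.31 and 3.30 in the sgCTL libraries, 2.96, 3.01 and 2.94 with sgDNAJC17 and 3.19, 3.25 and 3.29 in ΔRRM cells. All 3 knockdown libraries were below all others of the line. In Rh30 the cytosolic sum was 837 ± 12.8, 830.2 ± 7.11 and 839 ± 32.2 RPKM and the mitochondrial sum 203 ± 1.47, 215 ± 0.924 and 217 ± 4.29 RPKM. The Rh30 ratio was 4.08, 4.13 and 4.15 with sgCTL, 3.88, 3.87 and 3.81 with sgDNAJC17 and 3.90, 3.93 and 3.79 in ΔRRM cells. In Rh30 the sgCTL libraries were the highest and the other groups overlapped. *MARS1* carries much of the Rh30 sum: without it the ratio was 3.14 ± 0.0322, 3.00 ± 0.00775 and 3.09 ± 0.0609 in Rh30 and 3.04 ± 0.0248, 2.74 ± 0.0421 and 2.99 ± 0.0381 in ES8. A ratio of medians over the genes was 3.49 ± 0.167 with sgCTL and 3.31 ± 0.395 with sgDNAJC17 in ES8, a difference within its spread. In Rh30 the ratio of medians was 3.06 to 3.29 with sgCTL, 3.01 to 3.17 with sgDNAJC17 and 2.62 to 2.88 in ΔRRM cells, so that by this measure the ΔRRM libraries lay below both other groups.

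Of 13 pairs of cytosolic and mitochondrial genes for the same amino acid, 2 had both genes called in each knockdown, in the same direction. These were the isoleucyl pair (down) and the tryptophanyl pair (up) in ES8, and the tryptophanyl and tyrosyl pairs (up) in Rh30. For single genes, the share called with sgDNAJC17 against sgCTL was 27.4% of all tested for ES8 and 32.3% for Rh30. Whether 2 of 13 pairs is more than such shares would give was not tested. In Rh30 ΔRRM cells against sgCTL 7 of the 13 pairs had both genes called, 6 in the same direction: the alanyl, methionyl and valyl pairs down and the cysteinyl, asparaginyl and arginyl pairs up. The threonyl pair went apart. Of all genes taken singly, 68.8% were called in this comparison, so many pairs with both genes called are found at that share. With the GC and length correction *MARS1*, *VARS2*, *RARS1* and *NARS2* changed sign, each a gene of one of the same-direction pairs. Against knockdown, both genes were higher in the isoleucyl pair in ES8 ΔRRM cells and lower in the alanyl pair in Rh30 ΔRRM cells. There 14.7% and 60.0% of all genes were called. In the leucyl pair *LARS1* fell in ES8 while *LARS2* was at 0.12, not called. In the methionyl pair *MARS2* rose in Rh30 while *MARS1* was at -0.10, not called.

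Last, the cytosolic genes were compared by their promoter sequence. A list of 22 genes of the stress response (targets or parts of the ATF4 response) had 8 members up and 0 down in the ES8 knockdown, with a median log2 fold change of 0.24, and 12 up and 2 down in the Rh30 knockdown, with a median of 0.26. Of all genes 13.6% rose and 13.8% fell in ES8, and 16.1% and 16.2% in Rh30. *ATF4* itself went from 315 ± 3.51 to 513 ± 28.3 CPM (SD, n = 3) in ES8 (0.72, adjusted p = 9.34e-05) and from 241 ± 5.14 to 347 ± 14.9 CPM in Rh30 (0.54, adjusted p = 4.50e-05). *PPP1R15A*, which directs the phosphatase that reverses eIF2α phosphorylation, rose by 1.06 and 1.42. *DDIT3*, the stress transcription factor CHOP, rose by 0.52 and 0.49. *ASNS*, the asparagine synthetase gene, was at 0.08 (adjusted p = 0.348) in ES8 and rose by 0.45 in Rh30.

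The 6 synthetase genes with the motif TGATGCAA had medians of 0.01 in ES8 and -0.03 in Rh30, with 0 up and 1 down (*IARS1*) in ES8 and 1 up (*TARS1*) and 0 down in Rh30. *AARS1* was at 326, 331 and 325 CPM with sgCTL and 351, 317 and 313 CPM with sgDNAJC17 in ES8 (0.01, adjusted p = 0.924) and at 113, 103 and 104 CPM against 102, 92.2 and 85.0 CPM in Rh30 (-0.18, adjusted p = 0.0643). The groups overlapped in ES8, and in Rh30 the knockdown libraries were the lower. The 8 cytosolic genes with a promoter entry but without the motif had medians of -0.13 and 0.11, with 2 up and 3 down in ES8 and 3 up and 2 down in Rh30. Among them *EPRS1*, *SARS1* and *WARS1* were listed as ATF4 targets. All 6 genes with the motif were on that list, and they are 6 of its 10 genes with a promoter entry. The motif thus fell only in listed targets but missed some of them. The whole list of 13 synthetase genes taken as ATF4 targets had 3 up and 4 down in ES8 and 4 up and 1 down in Rh30. Of all genes 13.6% rose and 13.8% fell in ES8, and 16.1% and 16.2% in Rh30. In ΔRRM cells against knockdown the stress-response list had 0 up and 7 down in ES8, with a median of -0.29, and 6 up and 10 down in Rh30, with a median of -0.24. Of all genes 7.35% were higher and 7.36% lower in that comparison in ES8, and 29.4% and 30.5% in Rh30. These lists were described by counts and medians alone.

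**Figure D5:**
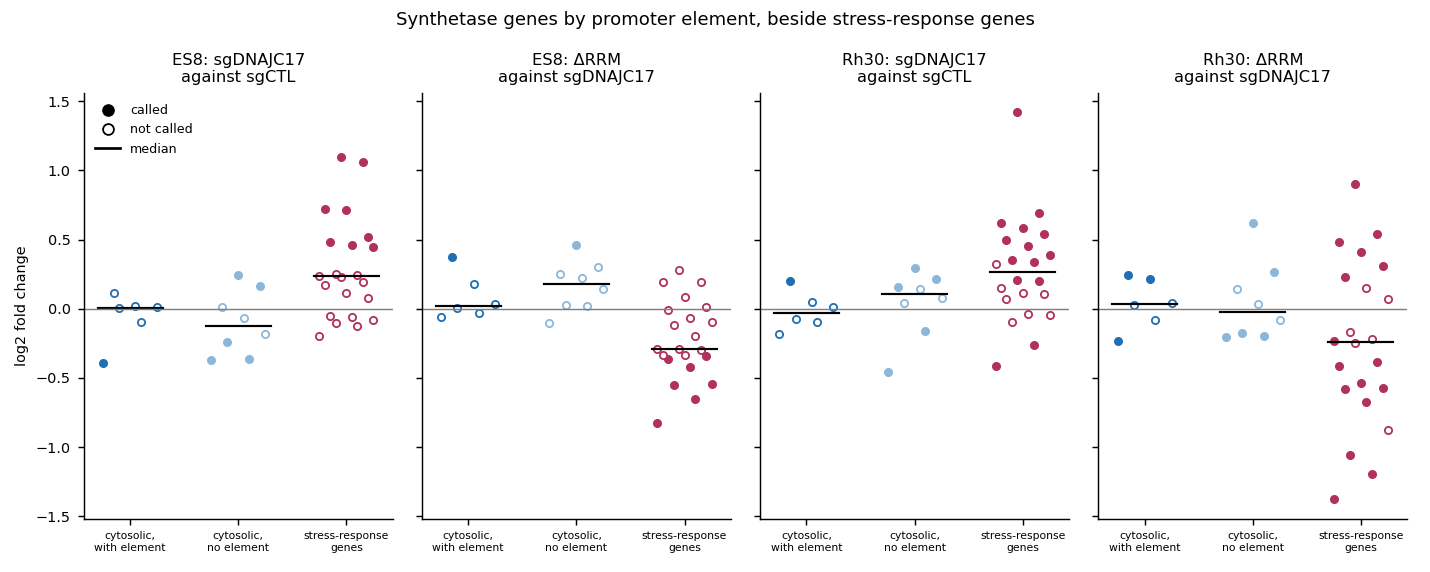
Log2 fold change (vertical) of the 6 cytosolic genes with TGATGCAA in the promoter, the 8 without it and 22 stress-response genes in 4 comparisons, with 1 point per gene, filled for adjusted p under 0.05, and a bar at the median. In the knockdown panels the stress-response medians are 0.24 and 0.26 and those of the genes with the motif 0.01 and -0.03.

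Other genes of charging and elongation were counted from lists, to be read against 13.6% up and 13.8% down of all genes in the ES8 knockdown and 16.1% and 16.2% in the Rh30 knockdown. Of 12 further genes of aminoacylation and transfer RNA handling, in the Rh30 knockdown 3 rose (*DTD2*, *GATC* and *TRNT1*, by 0.31, 0.26 and 0.28) and 1 fell (*AARSD1*, at -0.25). In Rh30 ΔRRM cells against sgCTL 11 rose and 1 fell, the largest rise being 1.33 in *PSTK*, the kinase of the selenocysteine pathway, in a comparison where 33.8% of all genes rose and 35.0% fell. Of 6 elongation factor genes, *EEF1A1* rose by 0.31 in the ES8 knockdown and *EEF1B2* and *EEF1A2* by 0.30 and 2.14 in the Rh30 knockdown. Their levels are not given here, and in sgCTL cells log2 differences between the lines ran up to 9.63 among the 6 (ES8 minus Rh30). The rise of 2.14 may therefore start from a low level in Rh30. In Rh30 ΔRRM cells 4 rose and 1 fell (*EEF2*, at -0.60). Median changes over all genes in Rh30 ΔRRM cells against sgCTL went down with GC content. Values corrected for GC content and length are not given for these lists.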

How the data were processed

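RNA-seq of polyadenylated RNA from 18 libraries was analysed. The authors deposited raw counts per gene for each library; per the labels they used Trimmomatic 0.36, STAR 2.5.2b and featureCounts of Subread 1.5.2 on GRCh38. The strand and multi-mapping settings are not given in the sources used here. The paper's methods name an older build, but 39 of 39 members lie within 1 kb of their RefSeq position in GRCh38. Symbols were mapped from the gene identifiers for 55082 genes.

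Tests of the counts used edgeR 4.0.16 under R 4.3.3 (TMM, filterByExpr, quasi-likelihood test, Benjamini-Hochberg adjustment over all genes), and called at an adjusted p under 0.05. Standard errors (SE) were taken from the log2 fold change and its F value. The interactions are coded Rh30 minus ES8. RPKM used the exon length of the files. DESeq2 1.42.0, other scalings and filters, a block for the replicate letter and the loss of each single library were tried. A GC and length correction (lowess, span 0.3) was chosen after seeing the data. Python 3.11.15, pandas 2.3.3, numpy 2.4.6 and matplotlib 3.10.9 were also used.

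The members, gene lists and tests were chosen with earlier results of these data known. Every library's value is given for 20 members: those called in the same direction in both knockdowns, called in the knockdown interaction, past a 2-fold change, or among the 3 largest changes of a within-line comparison. *AARS1*, *SARS1*, *AARS2*, *TARS2* and *YARS2* were given in the same way after their values were seen. Deviations of libraries with the same letter correlated at 0.426, 0.163 and 0.231 (A, B and C) over 12747 genes in the Rh30 knockdown and its controls. At least 1 letter was under 0.1 in every other comparison. In ES8 ΔRRM against knockdown they correlated at -0.459, -0.121 and -0.183, of like size with the other sign. The size of these values therefore does not by itself show pairing. Counts limit the precision of low genes, and p-values cover the spread of these libraries only. Whether groups overlapped was looked at in the members only, so no share over all genes stands beside it. The ES8 result of the list of further aminoacylation genes is not reported here.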

Additional observations from a re-analysis of the deposited data

Results flagged for a closer look

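Effects of the same contrast differed between the lines by a test of the interaction. For knockdown against sgCTL, the log2 change in Rh30 minus that in ES8 was 0.48 in *EPRS1*, 0.56 in *FARSB*, 0.46 in *IARS1*, 0.35 in *LARS1*, 0.61 in *AIMP1*, 0.57 in *AIMP2*, 0.38 in *CARS2* and 0.39 in *IARS2* (edgeR, adjusted p under 0.05).

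For ΔRRM cells against sgCTL the same difference was positive in 8 genes: 1.14 in *EEF1E1*, 0.93 in *AIMP1*, 0.74 in *RARS2*, 0.60 in *SARS1*, 0.51 in *FARS2*, 0.45 in *WARS2*, 0.37 in *YARS2* and 0.32 in *NARS1*. It was negative in 11 genes: -0.72 in *VARS1*, -0.72 in *AARS2*, -0.39 in *TARS2*, -0.38 in *AARS1*, -0.37 in *AIMP2*, -0.37 in *VARS2*, -0.36 in *GARS1*, -0.26 in *EARS2*, -0.23 in *MARS1*, -0.22 in *LARS2* and -0.21 in *QARS1*. The groups hold 3 libraries each, too few for a test of single values that stand apart within a group.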

How the results depend on the processing

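Counts of members called are given as up and down. The number of all genes called moved with the setting as well and is given where it was kept. In the ES8 knockdown (7 and 9), 0 and 5 were called at an adjusted p under 0.01, 4 up with library size alone, 4 up with no filter on low counts, 4 up with the replicate block, and 14 down with the GC and length correction. Of all 17143 genes tested, 4701 were called as reported. Library size alone called 4909 of them, the block 4140 and the correction 7264, and no filter called 5358 of 32644. In the Rh30 knockdown (13 and 4), 7 and 2 were called at an adjusted p under 0.01, 8 and 7 with library size alone, 8 up with all 18 libraries in 1 fit, 7 down at an unadjusted p under 0.05, and 8 down with the replicate block, with or without the GC and length correction. Of all 15391 genes tested, 4974 were called as reported. Library size alone called 4921 of them and the block 7235, or 6521 with the correction, and all 18 libraries called 4047 of 19360. In ES8 ΔRRM against sgCTL (0 and 0), 3 were up at an unadjusted p and 1 with no filter, which called 519 of all 32324 genes. In Rh30 ΔRRM against sgCTL (14 and 14), library size alone gave 7 and 22, with 10811 of all 15442 genes called. In ES8 ΔRRM against knockdown (6 and 0), 3 were up at an adjusted p under 0.01 and 3 with the replicate block, 12 and 2 at an unadjusted p, 11 and 2 with the GC and length correction, and 3 down with all 18 libraries. Of all 17099 genes tested, 2516 were called as reported. The block called 1353 of them and the correction 5444, and all 18 libraries called 4536 of 19360. In Rh30 ΔRRM against knockdown (8 and 12), library size alone gave 5 and 19, with 9446 of all 15309 genes called. In the knockdown interaction (8 and 0), 4 were up at an adjusted p under 0.01, 13 and 3 at an unadjusted p, and 1 was down under each of DESeq2, library size alone, at least 10 counts in every library and all 18 libraries. These called 2453 of 36013, 1715 of 18899, 1942 of 12807 and 1849 of 19360 genes. In the ΔRRM interaction (8 and 11), library size alone gave 5 and 18, with 8198 of all 18854 genes called, and 7 were down at an adjusted p under 0.01. A 2-fold requirement left 1 up and 0 down in Rh30 ΔRRM against sgCTL and in the ΔRRM interaction, 5 and 7 between the lines, and 0 elsewhere.

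With 1 library left out, the counts up and down ran from 0 to 10 and from 4 to 16 in the ES8 knockdown, from 7 to 14 and from 2 to 8 in the Rh30 knockdown, from 0 to 1 and at 0 in ES8 ΔRRM against sgCTL, from 12 to 16 and from 11 to 13 in Rh30 ΔRRM against sgCTL, from 2 to 8 and from 0 to 1 in ES8 ΔRRM against knockdown, from 7 to 11 and from 8 to 12 in Rh30 ΔRRM against knockdown, from 4 to 11 and from 0 to 1 in the knockdown interaction, and from 8 to 10 and from 7 to 12 in the ΔRRM interaction. In the ES8 knockdown, 0 were up without sgCTL A or B, 1 without sgCTL C, 2 without sgDNAJC17 C and 3 without sgDNAJC17 B, and 4 or 5 were down without a sgCTL library. The calls lost there without some library were those of *FARSA*, *FARSB*, *KARS1*, *LARS1*, *PARS2*, *TARS3*, *WARS1*, *WARS2* and *YARS1* among the named members. In the Rh30 knockdown, 7 were up without sgCTL A, sgCTL C or sgDNAJC17 B, 8 were down without sgDNAJC17 A and 2 without sgDNAJC17 B, and *EEF1E1*, *FARSA*, *KARS1*, *TARS3* and *WARS1* lost their call without some library. In ES8 ΔRRM against knockdown, 2 were up without sgDNAJC17 B or ΔRRM C and 3 without sgDNAJC17 C. In the knockdown interaction, 5 were up without ES8 sgCTL A or C and 4 without Rh30 sgCTL A, and in the ΔRRM interaction 7 were down without Rh30 ΔRRM C. These fits hold fewer libraries.

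Log2 fold changes of named members that were called as reported or under the alternative changed sign in 14 cases. With the GC and length correction these were *AIMP2* in the ES8 knockdown (-0.10), *FARSB* (-0.28), *QARS1* (0.017), *WARS1* (0.20) and *YARS1* (0.28) in Rh30 ΔRRM against sgCTL, *VARS1* in Rh30 ΔRRM against knockdown (0.010), and *FARSB* (-0.25), *QARS1* (0.0175), *YARS1* (0.23) and *CARS2* (0.39) in the ΔRRM interaction. With library size alone they were *IARS1* (-0.13) and *KARS1* (-0.044) in Rh30 ΔRRM against sgCTL, and *FARSA* (0.0070) and *IARS1* (0.060) between the lines. Of the other values of named members, 2533 kept their side of the threshold, 162 lost the call and 71 gained it. Calls that held in every alternative fit were 4 of 16 in the ES8 knockdown (*EPRS1*, *IARS1*, *VARS1* and *IARS2*), 9 of 17 in the Rh30 knockdown (*FARSB*, *QARS1*, *VARS1*, *YARS1*, *AIMP1*, *AIMP2*, *MARS2*, *WARS2* and *YARS2*) and 15 of 28 in Rh30 ΔRRM against sgCTL. The cause of these changes was not tested. The block changed no other count by over 1.5 times.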
